A study of Canis lupus familiaris with 8 samples.

Results

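Polyamine synthesis and methylthioadenosine salvage were followed in the hearts of dogs with hyperhomocysteinemia (HHcy), in which the amino acid homocysteine is raised in the blood, through the genes AMD1, ODC1, SRM, SMS and MTAP. Every probe set that the platform annotation assigns to one of these 5 symbols alone was taken, which gave 4 of the 23913 probe sets on the array: 1 for ODC1 (gene ID 475666), 2 for SMS (480861) and 1 for MTAP (474729). AMD1 and SRM had no such probe set and are not analysed here. Of the 4 probe sets, those of ODC1 and MTAP were bright enough to be tested, and both SMS probe sets lay among the dimmest 40% that were left out of the comparison.

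Total RNA of cardiac tissue was taken from 8 male dogs weighing 23 to 27 kg and measured on 1 Affymetrix canine array each. In the HHcy group, 4 dogs received methionine in the drinking water over 2 weeks, and 4 control dogs, whose drinking water the labels do not describe, were taken at the same time. The labels name no breed, age or heart chamber. The study asked how chronic HHcy changes cardiac gene expression.

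Polyamines are small, positively charged molecules that bind nucleic acids and ion channels, and in the heart muscle cell spermine plugs inward rectifier potassium channels. Ornithine decarboxylase, encoded by ODC1, makes putrescine and is the first committed and tightly controlled step. AMD1 decarboxylates S-adenosylmethionine, the activated form of methionine, and SRM and SMS attach the aminopropyl group it then carries, giving spermidine and spermine in turn. Each of these attachments releases methylthioadenosine, which MTAP splits into adenine and a sugar phosphate that a short series of further enzymes returns to methionine. The pathway therefore competes with methyl transfer, and so with homocysteine formation, for the same S-adenosylmethionine.

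The arrays shared a mean signal of 500.1 units once 2% was left out at each end, and 4 arrays a group limit the precision of every value. HHcy 6 stood apart from the rest: its 3'/5' signal ratio, a sign of RNA degradation, was 599.6 for actin against 0.378 to 2.49 on the controls, and that of HHcy 5 was 15.3. The GAPDH ratio of HHcy 5, 17.2, exceeded the 10.5 of HHcy 6, while the controls lay between 1.46 and 3.76. The summed signal of 7 cardiomyocyte markers was 13712 on HHcy 6 and 135049 to 212932 on the controls, with no marker listed at 0. The other HHcy arrays lay between 147867 and 174903. Of 8 macrophage markers, 7 had a higher signal in HHcy at an unadjusted p under 0.05 in limma, and their summed signal was 6946 to 12962 in HHcy against 2472 to 5560 in controls. The summed signal of 3 smooth muscle markers was 60260 on HHcy 6, against 1614 to 6965 on the controls. At the same unadjusted p, 3 of 4 fibroblast and 2 of 2 epithelial markers had a higher signal in HHcy, and 3 of 4 atrial markers a lower one. In bulk tissue, fewer cells of a type and less RNA per cell cannot be told apart. The part of these differences in the results below was not tested. For some genes, values are also given without HHcy 5 or HHcy 6 or both, or with the 3'/5' ratio as a model term.

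Neither ODC1 nor MTAP passed the test for a difference between HHcy and control hearts. With limma and Benjamini-Hochberg adjustment over 14301 probe sets, 0 of the 2 tested probe sets were called, and 0 had an unadjusted p under 0.05. Over all probe sets tested, 0.0979% were called and 17.8% had an unadjusted p under 0.05. The number called over the array, 14, became 9, 3, 4 and 3 without control 1, 2, 3 and 4, 5 without HHcy 5 and 31 without HHcy 8. Without the filter on dim probe sets 0 of the 4 were called, against 0.0587% of 23836, and 1 of the 4, an SMS probe set, had an unadjusted p under 0.05, against 14.7%. In none of the 4 did the groups separate without overlap, which 9.04% of all probe sets did. The median log2 fold change of all probe sets tested was 0.15, and it became 0.011 with quantile scaling and -0.15 with median scaling, so that differences of that size depend on how the arrays are scaled.

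**Figure D1:**
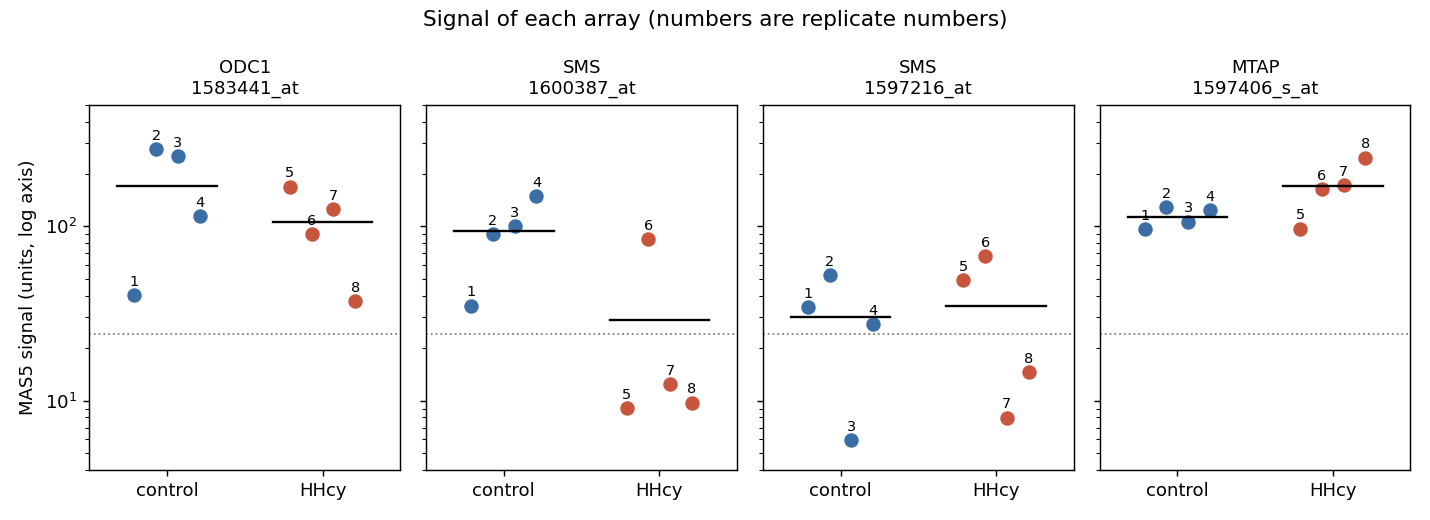
MAS5 signal (log axis) of each array for the ODC1, SMS and MTAP probe sets, with control arrays in blue, HHcy arrays in red, replicate numbers beside the points, a bar at each group's mean and a dotted line at the pseudocount of 24 units. The groups overlap in every panel, and in the SMS probe set 1600387_at the HHcy arrays 5, 7 and 8 lie at 9.03 to 12.5 while HHcy 6 lies at 84.7.

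ODC1, the gene of the decarboxylase that opens the pathway, varied widely between dogs of the same group. Its probe set 1583441_at had signals of 40.1, 277, 253 and 115 in controls 1 to 4. In HHcy 5 to 8 the signals were 169, 90.5, 126 and 37.4. Control 1 and HHcy 8 were both low, at nearly the same signal, and the 2 highest signals were both from controls. The highest control was 6.89 times the lowest, and the highest HHcy array 4.53 times the lowest. The spread within groups of ODC1, an SD of 0.89 on the log2 scale, was larger than that of 88.1% of the probe sets tested.

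The group means of ODC1 were 171 ± 113 in controls against 106 ± 55.8 in HHcy (SD, n = 4 each). The log2 fold change, on the log2(value + 24) scale used throughout, was -0.47 ± 0.54 (SE, limma adjusted p 0.656). Its 95% interval ran from a level 3.12-fold lower to one 1.64-fold higher in HHcy. The difference was thus smaller than the spread between dogs, and changes of either sign lie within the interval. Its size rested on single dogs: the log2 fold change was -0.92 without control 1, -0.15 without HHcy 8, -0.18 without control 2 and -0.22 without control 3. Without HHcy 6 it was -0.45, and without HHcy 5 and HHcy 6 it was -0.78 (adjusted p 0.728, range over the alternatives 0.355 to 0.945).

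SMS, spermine synthase, was measured by a pair of dim probe sets that did not give the same picture. On the brighter one, 1600387_at, the controls had signals of 35.1, 90.4, 101 and 149. HHcy 5, 7 and 8 had 9.03, 12.5 and 9.74, each below every control, and HHcy 6 had 84.7, within the control range. The means were 93.8 ± 46.8 in controls against 29.0 ± 37.2 in HHcy (SD, n = 4 each). HHcy 6 is also the array with the 3'/5' ratio and the cardiomyocyte marker signal that stood apart.

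In the fit without the filter, the log2 fold change of this SMS probe set was -1.26 ± 0.51 (SE, unadjusted p 0.0276), which was not called over 23836 probe sets (limma adjusted p 0.289). No fold is given, since 3 of the HHcy signals lie under the pseudocount: pseudocounts of 6 and 96 gave log2 fold changes of -1.84 and -0.61. Without HHcy 6 it was -1.68 (adjusted p 0.215) and without HHcy 5 and HHcy 6 -1.65 (adjusted p 0.553), within a range of adjusted p over the alternatives of 0.141 to 0.841. Adding the 3'/5' ratio as a model term, it was -1.87. It stayed below 0 in each of its 18 alternatives and was called in none.

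The other SMS probe set, 1597216_at, had signals of 34.4, 52.5, 5.92 and 27.5 in controls 1 to 4. In HHcy 5 to 8 the signals were 49.4, 67.8, 7.98 and 14.6. Low signals occurred in both groups, in control 3, HHcy 7 and HHcy 8, all under the pseudocount. The means were 30.1 ± 19.2 and 34.9 ± 28.5 (SD, n = 4 each), and the log2 fold change was 0.068 ± 0.44 (SE, limma adjusted p 0.958). That sign turned in 7 of 17 alternatives, among them quantile scaling (-0.17) and median scaling (-0.24).

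Whether the 2 SMS probe sets differed in their response was tested on their log2 difference within each array. The difference, brighter minus dimmer, was 1.10 ± 0.96 in controls against -0.23 ± 0.65 in HHcy (SD, n = 4 each), a change of -1.33. With pseudocounts of 6 and 96 the change was -1.92 and -0.65. An exact permutation test over the 8 arrays, two-sided, gave p = 0.0857, where 0.0286 is the smallest p it can give, so this change was not called. Without control 1 the change was -1.69 and the exact permutation p 0.0286, the smallest that 7 arrays allow. Without each other array in turn the exact permutation p ran from 0.114 to 0.2. This test was chosen after the SMS values had been seen. Over the 8 arrays the log2 values of the 2 probe sets had a Pearson r of 0.19, and both had signals under the pseudocount.

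MTAP, methylthioadenosine phosphorylase, carries the methionine part of the pathway back towards methionine. Its probe set 1597406_s_at, whose suffix marks probes that can match more than 1 transcript, had signals of 96.1, 129, 107 and 123 in the controls. In HHcy 5 to 8 the signals were 97.1, 164, 173 and 248. HHcy 6, 7 and 8 lay above every control, and HHcy 5 lay at the level of the lowest one, so the groups overlapped by that 1 array. The controls were close to each other, the highest being 1.34 times the lowest, while the HHcy arrays spanned 2.56 times. The spread within groups of MTAP was larger than that of 23.8% of the probe sets tested, a much smaller share than for ODC1.

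The means of MTAP were 114 ± 15.1 in controls against 171 ± 61.8 in HHcy (SD, n = 4 each). The log2 fold change was 0.45 ± 0.33 (SE, limma adjusted p 0.477), a 1.36-fold higher level with a 95% interval from 1.21-fold lower to 2.25-fold higher. It was not called, and the log2 fold change was 0.15 with quantile scaling and 0.14 with median scaling. Without HHcy 5 it was 0.66 (adjusted p 0.403) and without HHcy 8 it was 0.27 (adjusted p 0.708). Without HHcy 6 it was 0.44, and without HHcy 5 and HHcy 6 it was 0.76 (adjusted p 0.623). Over the alternatives the adjusted p ran from 0.403 to 0.917.

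**Figure D2:**
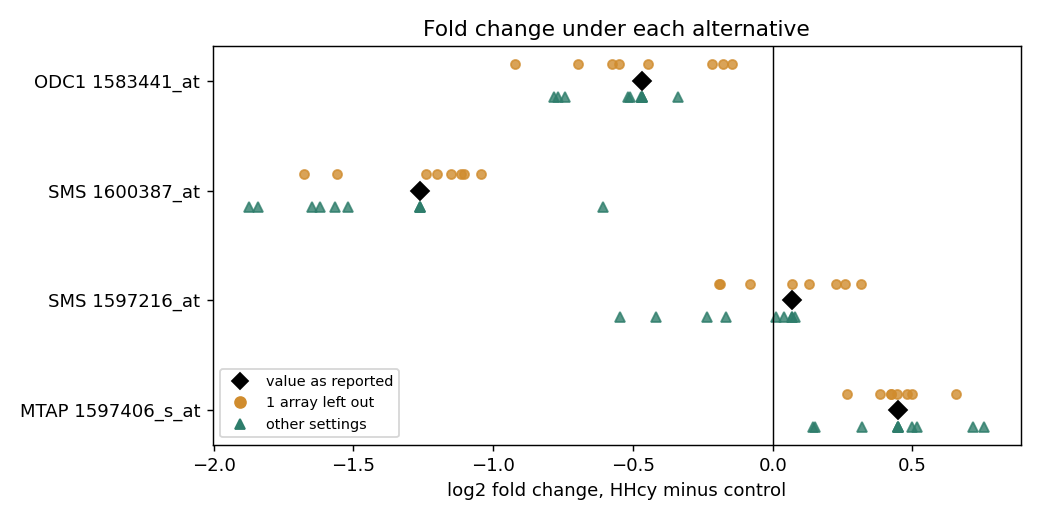
Log2 fold change (HHcy minus control) of the ODC1, SMS and MTAP probe sets as reported (diamonds), with 1 array left out (circles) and under the other settings (triangles). ODC1 and the brighter SMS probe set stay below 0, from -0.92 to -0.15 and from -1.87 to -0.61, MTAP stays above 0, from 0.14 to 0.76, and the dimmer SMS probe set lies on both sides of it.

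The genes whose log2 values ran most like those of ODC1 over the 8 arrays were PSMA6 (Pearson r 0.89), a proteasome subunit, MRPL47 (r 0.87), a mitochondrial ribosomal protein, and DST (r 0.85), a cytoskeletal linker. Those most like MTAP were SERHL2 (r 0.96), CBWD1 (r 0.93) and TMTC4 (r 0.92). These are the highest of 7287 probe sets compared for each gene, on arrays that share the same scaling, and are given as a description. None of the 6 was called, their log2 fold changes running from -0.31 for MRPL47 and DST to 0.40 for TMTC4, with a limma adjusted p of at least 0.447.

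The surrounding pathway was taken from 7 lists holding 27 genes, of which 19 were on the array and 16 were tested by their brightest probe set, while those of AZIN2, SMOX and EIF5A fell under the filter. With limma 0 of the 16 were called in either direction, with 3 at an unadjusted p under 0.05 (18.8%, against 17.8% of all probe sets). The groups did not overlap for 1 of the 16 (6.25%), against 11.4% of all probe sets. Over all 24 tested probe sets of these genes, 0 were called, 6 (25%) had an unadjusted p under 0.05 and 4 (16.7%) had groups that did not overlap. The median log2 fold change was 0.083, against 0.15 over all probe sets tested, and 9 of the 16 lay above 0.

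Among the proteins that control ornithine decarboxylase, the product of ODC1, the antizymes mark it for degradation and the antizyme inhibitor AZIN1 shields it. OAZ1, the main antizyme gene, measured 16905 ± 4128 in controls against 18913 ± 1944 in HHcy dogs (SD, n = 4 each), a log2 fold change of 0.18 that was -0.12 with median scaling. OAZ2 measured 4633 ± 1407 against 2774 ± 1136 (SD, n = 4 each), for a log2 difference of -0.80 ± 0.34 (SE, limma adjusted p 0.258). OAZ3 differed by 0.34 on the log2 scale, or by 0.044 with quantile scaling and 0.034 with median scaling. The OAZ2 difference was -0.50 without HHcy 6, -0.29 when HHcy 5 was left out too, and -0.030 once the model held the 3'/5' ratio, and on the other OAZ2 probe set it was -0.040. AZIN1 measured 1259 ± 451 against 706 ± 426 (SD, n = 4 each), and its log2 difference was -1.03 ± 0.49 (SE, adjusted p 0.292). HHcy 6 had the lowest AZIN1 signal, and without that array the log2 fold change was -0.50. Adding the 3'/5' ratio as a model term, it was 0.0090. None of the 4 was called.

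Ornithine, the substrate of ODC1, is released by the arginases. ARG2, the mitochondrial arginase, measured 1230 ± 145 in control dogs against 724 ± 143 in HHcy dogs (SD, n = 4 each), and was the 1 gene of these lists whose groups did not overlap on its brightest probe set. Its log2 fold change of -0.76 ± 0.24 (SE) was not called (limma adjusted p 0.172, range over the alternatives 0.104 to 0.915). It was -0.54 without HHcy 5 and HHcy 6, -0.53 with the 3'/5' ratio as a model term, and -1.06 with median scaling. ARG1, by its brightest probe set, differed by -0.10 on the log2 scale, or by 0.17 without HHcy 6.

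Spermine and spermidine, the products downstream of SMS and SRM, are acetylated for export and breakdown by SAT1. The brightest SAT1 probe set measured 3213 ± 1013 in control dogs against 5500 ± 1324 in HHcy dogs (SD, n = 4 each). The log2 fold change there was 0.79 ± 0.28 (SE, limma adjusted p 0.202), and on the other SAT1 probe set it was 0.47. With the 3'/5' ratio as a model term they were 0.42 and 0.36, and with median scaling 0.48 and 0.17. Without HHcy 6 they were 0.66 and 0.38. Both probe sets carry the suffix described for MTAP. Neither was called. The macrophage marker signal given above was also higher in HHcy, and its part in the SAT1 values was not tested. SAT2 differed by 0.21 on the log2 scale, or by -0.093 with median scaling.

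After MTAP, the salvage enzymes tested were APIP and ENOPH1, which convert the sugar phosphate further, and the transaminase KYAT1. On their brightest probe sets the log2 fold changes were 0.13, -0.70 and 0.032, with a limma adjusted p of at least 0.493. With median scaling APIP had -0.17 and KYAT1 -0.27. ENOPH1 ran from -1.01 to -0.26 with 1 array left out, being -0.26 without HHcy 5, whose signal of 10.5 lay under the pseudocount. The dimmer KYAT1 probe set had -1.55 (adjusted p 0.148), with groups that did not overlap, and was not called. Its HHcy 6 signal of 15.6 lay under the pseudocount, and pseudocounts of 6 and 96 gave -1.94 and -0.92. S-adenosylmethionine supply was represented by MAT2A, the catalytic subunit of the synthetase outside the liver, and by its partner MAT2B. The brightest MAT2A probe set measured 10353 ± 1156 in control dogs against 8345 ± 534 in HHcy dogs (SD, n = 4 each), a log2 difference of -0.31 (adjusted p 0.438). The dimmer MAT2A probe sets differed by -0.89 (adjusted p 0.171) and -1.31 (adjusted p 0.121), with groups that did not overlap, and were not called. With the 3'/5' ratio as a model term they differed by -0.47 and -0.96, and the brightest by -0.23. MAT2B had a log2 difference of 0.32 (adjusted p 0.507), or 0.014 with median scaling. Spermidine is also consumed to form hypusine on EIF5A. There EIF5A2, a paralogue of EIF5A, differed by 0.69 on the log2 scale (adjusted p 0.318), or by 0.39 with median scaling. DHPS, the enzyme that uses the spermidine, differed by 0.23, or by -0.077 with median scaling. SLC18B1, a vesicular polyamine transporter gene, had -0.33 (adjusted p 0.555).

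**Figure D3:**
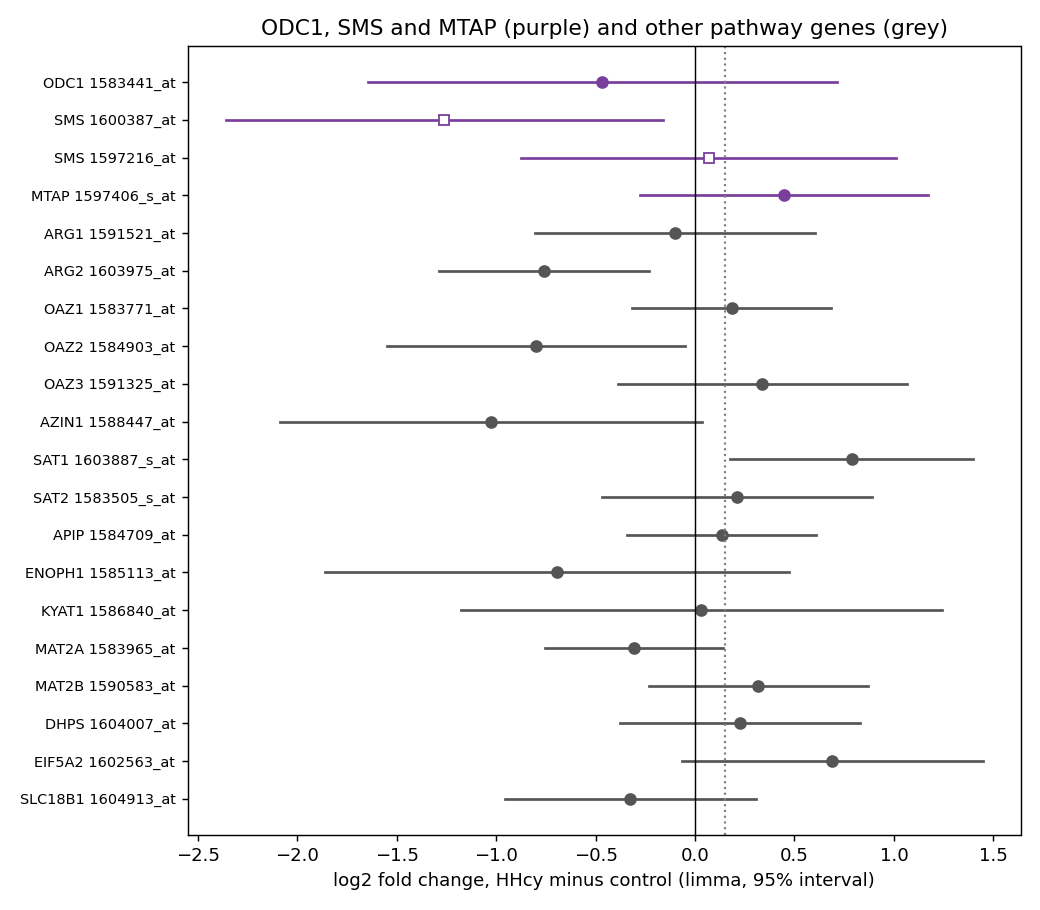
Log2 fold change (HHcy minus control, points) with its 95% interval (lines) for the ODC1, SMS and MTAP probe sets in purple and the 16 tested pathway genes in grey. Open squares mark the SMS probe sets, taken from the fit without the filter, and the dotted line marks the median of all probe sets tested, 0.15. The interval of ODC1 runs from -1.64 to 0.71 and that of MTAP from -0.28 to 1.17.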

How the data were processed

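The authors' deposited values are probe set intensities, linear and made by MAS5 per the submitters' processing notes, which name no version. Array titles gave the groups, and the labels name no batch. Scanner files and detection calls were not used here, nor were coordinates or sequences. Of ODC1, SMS and MTAP, 3 match the RefSeq gene table by symbol and 2 by gene ID, SMS being listed there under another ID.

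Intensities were taken as log2(value + 24), with 24 the 20th percentile of the table, which understates changes of dim probe sets. From these, 77 control probe sets were dropped, and then the dimmest 40% by their mean over the arrays. The comparison used limma 3.58.1 in R 4.3.3 (lmFit, and eBayes with an intensity trend), with Benjamini-Hochberg adjusted p under 0.05 as the call. Both SMS probe sets were read from the same fit without the filter. The procedure was tested on simulated data. p-values cover the spread between arrays, which joins dogs and handling.

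The genes and lists were chosen with earlier results of these data known. The rule named all probe sets of AMD1, ODC1, SRM, SMS and MTAP, any gene of 7 pathway lists that passed or else the one of lowest p in each, and the 3 genes most correlated with ODC1 and with MTAP. The remaining list genes are given to account for their lists. Alternatives were quantile and median scaling, pseudocounts of 6 and 96, no filter or the dimmest 60% left out, no intensity trend or robust eBayes, array weights, 1 probe set per gene, arrays left out, and a covariate, the log2 3'/5' ratio averaged over actin and GAPDH.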

Additional observations from a re-analysis of the deposited data

Results flagged for a closer look

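Among ODC1, SMS, MTAP and the other pathway genes, and for the 3'/5' ratio, 48 groups of 4 arrays were searched for an array far from the other 3, and 7 had one. For independent, normally distributed values chance gives about 1 in 20. These groups share the same 8 arrays and are not independent, so the 7 cannot be set against that share. In SMS (1600387_at) HHcy 6 had a signal of 84.7 against 9.03 to 12.5 on the other HHcy arrays. Control 2 stood apart for ARG1 (818 against 1316 to 1364), AZIN1 (1931 against 964 to 1082) and KYAT1 (412 against 1430 to 1716). Control 1 had the highest OAZ1 signal, 23084 against 14571 to 15217, and control 3 the lowest MAT2A signal among controls, 8633 against 10731 to 11101. HHcy 8 had an EIF5A2 signal of 91.2, against 209 to 230 on the other HHcy arrays and 102 ± 18.1 (SD, n = 4) in controls.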

How the results depend on the processing

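No paired analysis was possible because the groups share no replicate number. ODC1 and MTAP were called in 0 of the 19 alternatives that tested them, the brighter SMS probe set in 0 of 18, the dimmer in 0 of 17, and the pathway genes in 0 of 20. With the dimmest 60% left out, 0 of the ODC1, SMS and MTAP probe sets were tested. The count over all probe sets, 14, was 7 with quantile scaling, 9 with the dimmest 60% left out, 76 with array weights, 5 without HHcy 5 and HHcy 6, 5 with the 3'/5' ratio as covariate, and 3 to 31 with 1 array left out. It was 12 with median scaling, 10 of them higher, against 14 of 14 higher. The log2 fold change of the dimmer SMS probe set was -0.17 with quantile scaling, -0.24 with median scaling, -0.54 without HHcy 5 and HHcy 6, -0.42 with the covariate, and -0.19 to 0.32 with 1 array left out. Median scaling turned OAZ1 (-0.12), SAT2 (-0.093), APIP (-0.17), KYAT1 (-0.27) and DHPS (-0.077). ARG1 was 0.032 without HHcy 5 and HHcy 6, 0.13 with the covariate and -0.29 to 0.17 with 1 array left out. AZIN1 was 0.0090 with the covariate, and the dimmer SAT2 probe sets 0.14 and -0.26. The dimmer OAZ2 probe set was 0.15 with the covariate, 0.019 with a pseudocount of 96, 0.45 without HHcy 5 and HHcy 6, and -0.30 to 0.43 with 1 array left out. With 1 array left out SAT2 ran from -0.064 to 0.38 and KYAT1 from -0.43 to 0.51. The cause was not tested. Dim signals limit both SMS probe sets.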

Other observations

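Other probe sets of several pathway genes gave values that differed in size or sign from those of the brightest one, and are named after their values were seen. For ARG1 the dimmer probe sets had signals of 48.5 ± 27.6 in controls and 123 ± 88.0 in HHcy (limma adjusted p 0.328), and of 16.2 ± 11.4 and 107 ± 65.0 in the fit without the filter (adjusted p 0.182), against 1215 ± 265 and 1173 ± 428 for the brightest (SD, n = 4 each). The dimmer KYAT1 probe set measured 168 ± 60.2 in control dogs against 42.7 ± 26.0 in HHcy dogs (SD, n = 4 each, log2 fold change -1.55, adjusted p 0.148), while the brightest had 0.032. For the dimmer one, pseudocounts of 6 and 96 gave -1.94 and -0.92. The dimmer MAT2A probe sets differed by -0.89 (adjusted p 0.171) and by -1.31 (adjusted p 0.121) on the log2 scale, with groups that did not overlap, against -0.31 for the brightest, whose groups overlapped. Groups also did not overlap on the dimmer KYAT1 probe set and on the dimmest ARG1 probe set, the one from the fit without the filter. The dimmer SAT2 probe sets differed by -0.25 and 0.70 on the log2 scale, against 0.21 for the brightest, and the dimmer OAZ2 probe set by -0.040, against -0.80. None of these was called.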
